A study of Aspergillus niger with 9 samples.

Results

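Polyketide synthases (PKSs) and nonribosomal peptide synthetases (NRPSs) build the carbon backbones of most fungal secondary metabolites. They were followed here in Aspergillus niger as the genes whose deposited PFAM annotation holds PF00109, the ketoacyl synthase domain, or PF00668, the condensation domain of NRPSs. Genes whose closest SwissProt protein is a fatty acid synthase were left out, and 68 of the 11187 annotated genes remained. A PKS joins acyl units step by step on a carrier domain, and a reducing PKS also works on each keto group as it goes. An NRPS loads amino acids through adenylation domains and joins them through condensation domains, with no ribosome. In aspergilli the synthase gene usually lies in a cluster with genes for tailoring enzymes, transporters and a transcription factor, and the products include spore pigment, toxins and the siderophores that bind iron.

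RNA was sequenced from 3 strains with 3 libraries each. They were MA234.1, which carries no deletion in the labels, a strain lacking aslA and a strain lacking aslB. The series concerns FlbA, which damps G protein signals, and transcription factors that act after it, and the comparisons ask which transcripts differ when either gene is missing. Mycelium came from shaken liquid cultures, of which the labels describe 16 h in a rich glucose medium (25 mM glucose; yeast extract at 0.5%, casamino acids at 0.2%) and 4 h in 25 mM xylose without saying which a library came from. The labels call the triplicates biological, and do not say whether a deletion strain is more than 1 isolate.

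Total counts per library ran from 11321882 to 19110786. Levels are counts scaled by library total and TMM factor (CPM), and 3 counts correspond to 0.158 to 0.275 CPM. Within ΔaslB the libraries stood apart. Replicate 2 correlated with the MA234.1 libraries at r = 0.97 to 0.978 across genes, replicate 3 with the ΔaslA libraries at 0.967 to 0.984, and replicate 1 with ΔaslA at 0.922 to 0.941, so results that involve ΔaslB are given with and without those libraries. The label of vegetative mycelium was checked against 8 genes matched to asexual sporulation markers. Both dewA matches, spore wall hydrophobins, were at or below 0.121 CPM in every library, and a match to brlA, the switch to conidiation, read 0.622 to 1.76 CPM. A further brlA match read 36.9, 41 and 39.1 CPM in MA234.1 and 17.9, 11.7 and 18.7 CPM in ΔaslA, while abaA, which acts after brlA, read 0.825 to 2.01 CPM in MA234.1 and 16.9 to 21.7 CPM in ΔaslA. The wetA match read 20.9 to 24.0 CPM in MA234.1 and 21.4 to 30.7 CPM in ΔaslA. The rodA matches read 10.8 to 14.6 and 2.11 to 3.95 CPM in MA234.1, and 3.27 to 5.28 and 0.948 to 4.90 CPM in ΔaslA. The markers thus differed in level, and they do not settle the label. Neither deleted gene could be matched by name in the annotation, so the deletions were not checked. Because whole mycelium was sequenced, fewer cells making a transcript and less of it per cell cannot be told apart.

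By their domains, the 68 genes divided into 25 reducing PKSs, 9 non-reducing PKSs, 8 PKS-NRPS hybrids, 18 NRPSs, 6 ketoacyl synthases without an acyltransferase domain and 2 genes with a condensation domain alone. The rule also took in 4 genes whose closest SwissProt protein belongs to primary metabolism. ATCC64974_80640 matched the L-2-aminoadipate reductase of lysine synthesis (lys2), which shares the NRPS domain layout. ATCC64974_25070 and ATCC64974_66210 matched acetyl-CoA acetyltransferases, thiolases that join or split acetyl units, and ATCC64974_51410 matched a mitochondrial 3-oxoacyl synthase of fission yeast. For ΔaslA against MA234.1, the counts over all members are therefore given with and without these 4. The deposited annotation placed 62 of the 68 genes in 57 of its 75 secondary metabolite clusters.

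Most synthase genes were weakly transcribed. Of the 68, 47 passed edgeR's filter on low counts, and the 21 that did not had means of at most 1.02 CPM in any strain. Set per kilobase of gene span, introns included, and with the 4 matches to primary metabolism left out, the order in MA234.1 began with ATCC64974_75780, a reducing PKS closest to the lovastatin diketide synthase LovF of A. terreus, at 14.2 ± 0.432 CPM per kb (SD, n = 3). The NRPS ATCC64974_97650 followed at 13.9 ± 1.71 CPM per kb, within the spread of the first. It is closest to NRPS2 of A. fumigatus, known there as SidC, which makes the intracellular siderophore ferricrocin. The NRPS ATCC64974_82390 came next at 9.79 ± 0.984 CPM per kb, below the libraries of both. From the third place to the tenth of this order, a range of 9.79 to 4.58 CPM per kb, each gene overlapped the next. Of the 4 left out, the thiolase matches ATCC64974_25070 and ATCC64974_66210 stood above all of these at 1393 and 167 CPM per kb, and ATCC64974_80640 (8.47) and ATCC64974_51410 (6.91) lay within that range.

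**Figure D1:**
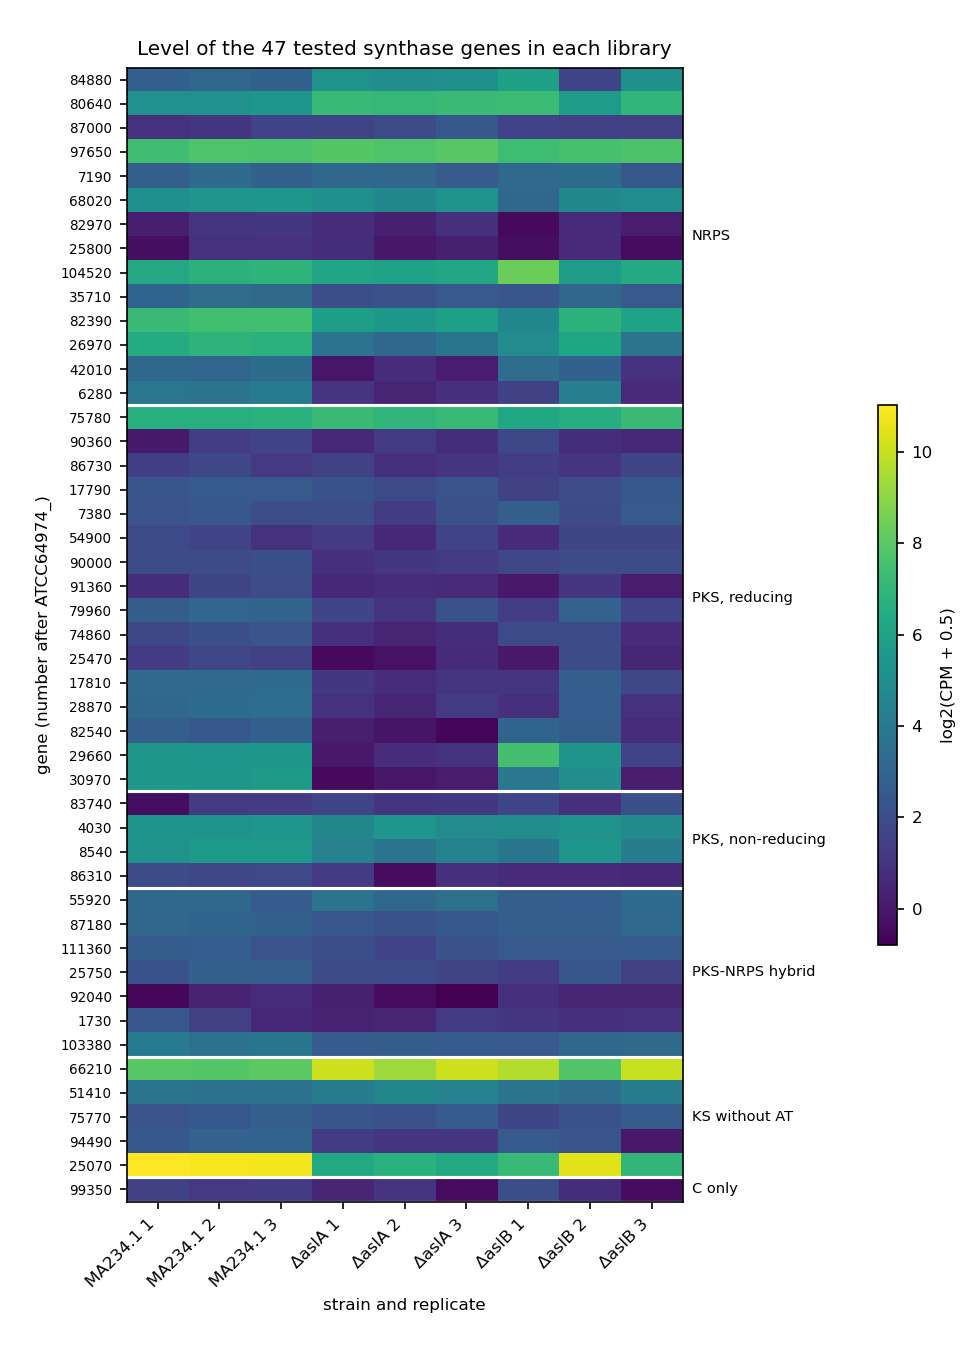
Levels of the 47 synthase genes that passed the filter, as log2(CPM + 0.5), in each of the 9 libraries (columns, strain and replicate); rows are genes grouped by domain class (KS without AT, ketoacyl synthase without acyltransferase; C only, condensation domain only) and ordered within a class by their fold change in ΔaslA. The lowest rows of the NRPS and reducing PKS blocks are darker in the 3 ΔaslA libraries and in ΔaslB replicate 3 than in MA234.1 and ΔaslB replicate 2.

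Against MA234.1, synthase genes in ΔaslA more often fell than rose. With edgeR's quasi-likelihood test and an adjusted p under 0.05, 16 of the 47 tested genes fell (34.0%, against 25% of the 9568 genes tested) and 4 rose (8.51%, against 23.6% of all genes). The median log2 fold change was -0.94 over the 47 and 0.00 over all genes tested. Without the 4 matches to primary metabolism, 15 of 43 fell and 1 rose, with a median of -1.01. The ΔaslA libraries lay wholly below those of MA234.1 for 26 of the 47 genes and wholly above for 8, against 37.9% and 36.8% of all genes.

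**Figure D2:**
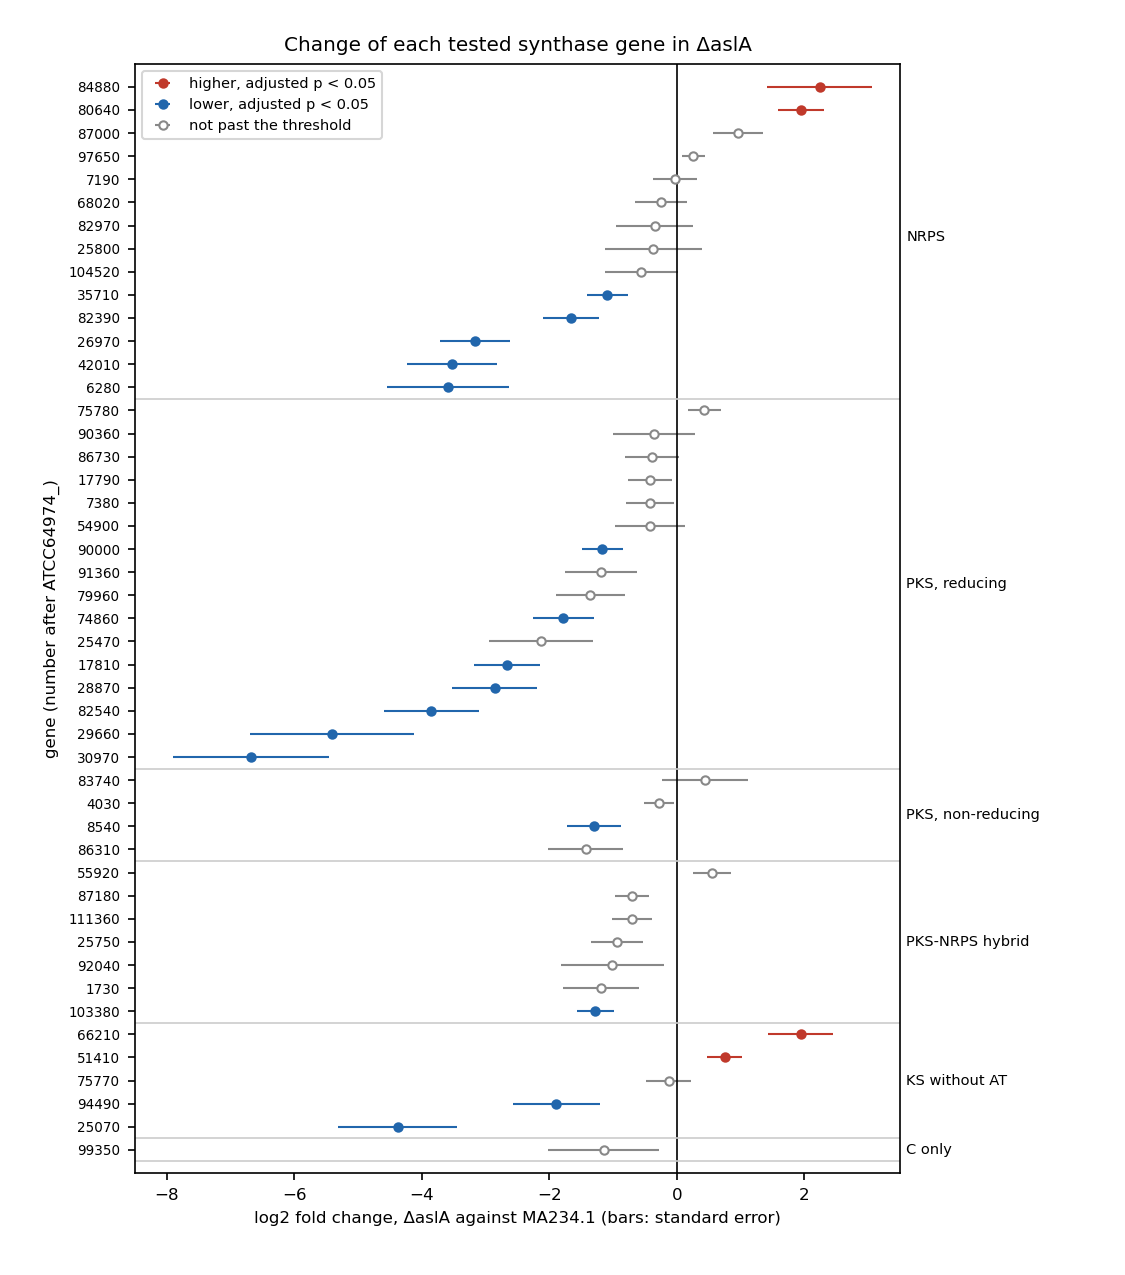
Log2 fold change of each of the 47 tested synthase genes, ΔaslA against MA234.1 (x axis; bars are standard errors of the edgeR fit over 9 libraries), grouped by domain class. The 16 filled blue points at the left, down to -6.68, passed the threshold as lower, and 4 filled red points, up to 2.24, passed it as higher.

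Of the reducing PKSs, 16 of 25 were tested, 7 fell (43.8%, against 25% of all genes) and 0 rose (against 23.6%). Their median log2 fold change was -1.28. Those with an enoyl reductase domain (11 tested, 5 fell, median -1.19) and those without (5 tested, 2 fell, median -1.36) both leaned downward. The deepest fall was that of ATCC64974_30970 on contig 4 from 1333539 to 1341844, closest to LovF. It read 45.1, 44.2 and 49.0 CPM in MA234.1 and 0.222, 0.474 and 0.622 CPM in ΔaslA. All 3 ΔaslA libraries were thus close to the level that 3 counts give, and the groups did not overlap. edgeR put its log2 fold change at -6.68, with an SE of 1.22 and an adjusted p of 0.00808. Next came ATCC64974_29660, another LovF match on contig 4 from 929726 to 937901. MA234.1 read 43.7, 42.7 and 45.5 CPM, and ΔaslA 0.518, 1.16 and 1.40 CPM. The fall was of the same order in each ΔaslA library (log2 fold change of -5.41 with SE 1.28, adjusted p = 0.0108 by edgeR), though limma-voom did not call it (adjusted p = 0.0586).

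The other 5 reducing PKSs that fell were less abundant. ATCC64974_82540, on contig 14 from 67022 to 75300, is closest to the conidial pigment synthase wA of A. nidulans but carries a ketoreductase domain, which puts it among the reducing enzymes. It went from 6.33, 5.07 and 6.91 CPM to 0.665, 0.421 and 0.155 CPM (log2 fold change of -3.85 with SE 0.75, adjusted p = 0.0081 by edgeR). ATCC64974_28870, closest to A. fumigatus NRPS14, the pseurotin hybrid synthetase, but without NRPS domains here, went from 8.16, 10.1 and 10.8 CPM to 1.40, 0.843 and 1.79 CPM (-2.86, SE 0.67, adjusted p = 0.0102). ATCC64974_17810 went from 8.90, 9.10 and 9.67 CPM to 1.70, 1.16 and 1.48 CPM (-2.67, SE 0.52, adjusted p = 0.0081). For these 3 genes every ΔaslA library was far below the lowest MA234.1 library. ATCC64974_74860 (-1.78, SE 0.48, adjusted p = 0.0159) and ATCC64974_90000 (-1.17, SE 0.32, adjusted p = 0.0167), both LovF matches, were at 2.93 to 4.53 CPM in MA234.1 and at 0.843 to 1.87 CPM in ΔaslA. The call of ATCC64974_74860 was lost without MA234.1 replicate 3 or ΔaslA replicate 2 (adjusted p up to 0.0581). That of ATCC64974_90000 was lost without MA234.1 replicate 2 or 3 or ΔaslA replicate 1 (up to 0.0675). The most abundant gene of the class, ATCC64974_75780, was not among those called. It read 102, 102 and 108 CPM in MA234.1 and 154, 122 and 145 CPM in ΔaslA (log2 fold change of 0.43 with SE 0.26, adjusted p = 0.194 by edgeR), the only reducing PKS whose ΔaslA libraries all lay above MA234.1. A short ketoacyl synthase model, ATCC64974_75770, ends 190 bp before it on the same strand and read 4.22 to 6.52 CPM in MA234.1 and 4.11 to 5.60 CPM in ΔaslA.

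Non-reducing PKSs make aromatic compounds, spore pigment among them. Of 9 genes 4 were tested, 1 fell (25%, the share of all genes) and 0 rose (against 23.6% of all genes). Of the 7 genes closest to wA, 3 passed the filter, among them ATCC64974_82540, which is counted above with the reducing PKSs. By far the most abundant was ATCC64974_8540 (contig 2 from 338581 to 345261). It read 37.1, 47.1 and 48.1 CPM in MA234.1 and 20, 13.1 and 20.5 CPM in ΔaslA, with no overlap. edgeR gave a log2 fold change of -1.30 with an SE of 0.42 and an adjusted p of 0.03. The call was lost with the replicate number as a block and with any single MA234.1 or ΔaslA library left out (adjusted p up to 0.0975). The sporulation markers moved with it in part. Of 8 marker genes 6 were tested, 1 rose (abaA, 16.7%) and 2 fell (a rodA and a brlA match, 33.3%), against 23.6% and 25% of all genes. Their summed level was 80.2 to 80.6 CPM in MA234.1, 68.4 to 68.9 CPM in ΔaslA and 44.2 to 72.1 CPM in ΔaslB. Their part in the change of this gene was not tested. ATCC64974_86310, also closest to wA, read 2.76 to 3.21 CPM in MA234.1 and 0.263 to 1.85 CPM in ΔaslA (-1.43, SE 0.59, adjusted p = 0.0724). Other wA matches were near the floor: ATCC64974_40650, ATCC64974_92700 and ATCC64974_75090 read at most 1.58 CPM in any library. ATCC64974_4030, which the deposited annotation types as a hybrid and whose closest protein is the bacterial erythromycin synthase, read 36.6 to 42.3 CPM in MA234.1 and 24.5 to 42.6 CPM in ΔaslA (-0.28, SE 0.24, adjusted p = 0.354). The sterigmatocystin synthase match stcA, ATCC64974_83740, read 0.275 to 2.01 CPM in MA234.1 and 1.47 to 2.59 CPM in ΔaslA (0.44, SE 0.68, adjusted p = 0.612).

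Among the PKS-NRPS hybrids, which fuse a polyketide chain to an amino acid, 7 of 8 were tested. Of these 1 fell (14.3%, against 25% of all genes) and 0 rose (against 23.6%). ATCC64974_103380, closest to NRPS14 and on contig 17 from 2401329 to 2413473, fell from 15.7, 12.1 and 13.6 CPM to 5.55, 6.06 and 5.44 CPM (log2 fold change of -1.28 with SE 0.29, adjusted p = 0.00951 by edgeR). Every other tested hybrid but one had a negative value, and none passed the threshold. ATCC64974_55920 was the exception in sign, with 8.44, 8.35 and 5.68 CPM in MA234.1 and 12.6, 8.74 and 11.4 CPM in ΔaslA (0.55, SE 0.30, adjusted p = 0.162). The 2 genes are the same class, and are both closest to NRPS14.

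NRPS genes were called in both directions, as were all genes. Of 18 genes 14 were tested, 5 fell (35.7%, against 25% of all genes) and 2 rose (14.3%, against 23.6%). The median log2 fold change was -0.36. With the lys2 match left out, 5 of 13 tested NRPSs fell (38.5%) and 1 rose (7.69%), with a median of -0.37. The 3 genes closest to A. fumigatus NRPS8, each with 4 or 5 adenylation hits, all fell. ATCC64974_26970 (contig 4 from 117281 to 134490) read 88.0, 118 and 107 CPM in MA234.1 and 12.5, 8.69 and 13.4 CPM in ΔaslA (-3.17, SE 0.55, adjusted p = 0.00808). ATCC64974_42010 (contig 6 from 959192 to 975685) read 8.80, 7.76 and 9.90 CPM against 0.444, 1.16 and 0.622 CPM (-3.53, SE 0.71, adjusted p = 0.0082). ATCC64974_82390, at the start of contig 14 from 4428 to 21351, read 146, 176 and 175 CPM against 55.5, 44.2 and 57.9 CPM (-1.66, SE 0.44, adjusted p = 0.0157). The last call was lost without ΔaslA replicate 2 (adjusted p = 0.0576). The 3 genes share a closest protein, so reads of similar stretches could be divided among them, which these counts do not show.

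Also lower was ATCC64974_6280, closest to NRPS10, known in A. fumigatus as GliP, the gliotoxin synthetase. With 2 condensation hits and 1 adenylation hit it is a short enzyme, on contig 1 from 1901163 to 1905807. It went from 13.9, 13.1 and 15.9 CPM to 1.48, 0.843 and 1.24 CPM (log2 fold change of -3.59 with SE 0.95, adjusted p = 0.0153 by edgeR, and 0.0587 without ΔaslA replicate 2). ATCC64974_35710, closest to the enniatin synthase ESYN1 of Fusarium, went from 7.52, 10.3 and 9.36 CPM to 3.70, 3.95 and 5.13 CPM (-1.09, SE 0.32, adjusted p = 0.0218). That call was lost without MA234.1 replicate 2 or 3 or ΔaslA replicate 1 or 2 (adjusted p up to 0.0813). The other enniatin synthase matches did not pass the threshold, and ATCC64974_87000 stood on the other side of 0, with 1.38 to 2.53 CPM in MA234.1 and 2.59 to 5.05 CPM in ΔaslA (0.96, SE 0.39, adjusted p = 0.0714).

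The NRPS that rose, besides lys2, was ATCC64974_84880 on contig 14 from 741123 to 747332. Its closest protein is NRPS4 of A. fumigatus, known there as SidD, which makes the extracellular siderophore fusarinine C. MA234.1 read 6.60, 8.06 and 6.91 CPM and ΔaslA 36.7, 31.2 and 34.4 CPM. The groups were far apart, but the test was near its threshold (log2 fold change of 2.24 with SE 0.82, adjusted p = 0.0486 by edgeR). The call was lost with any MA234.1 or ΔaslA library left out, without ΔaslB replicate 3, with the replicate block and with limma-voom (adjusted p up to 0.125). The fit shares 1 estimate of spread over all strains, and ΔaslB read 63.0, 2.67 and 34.5 CPM for this gene. The ferricrocin synthetase match ATCC64974_97650 did not share the rise, with 170, 216 and 207 CPM in MA234.1 and 237, 222 and 250 CPM in ΔaslA (0.26, SE 0.18, adjusted p = 0.267).

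**Figure D3:**
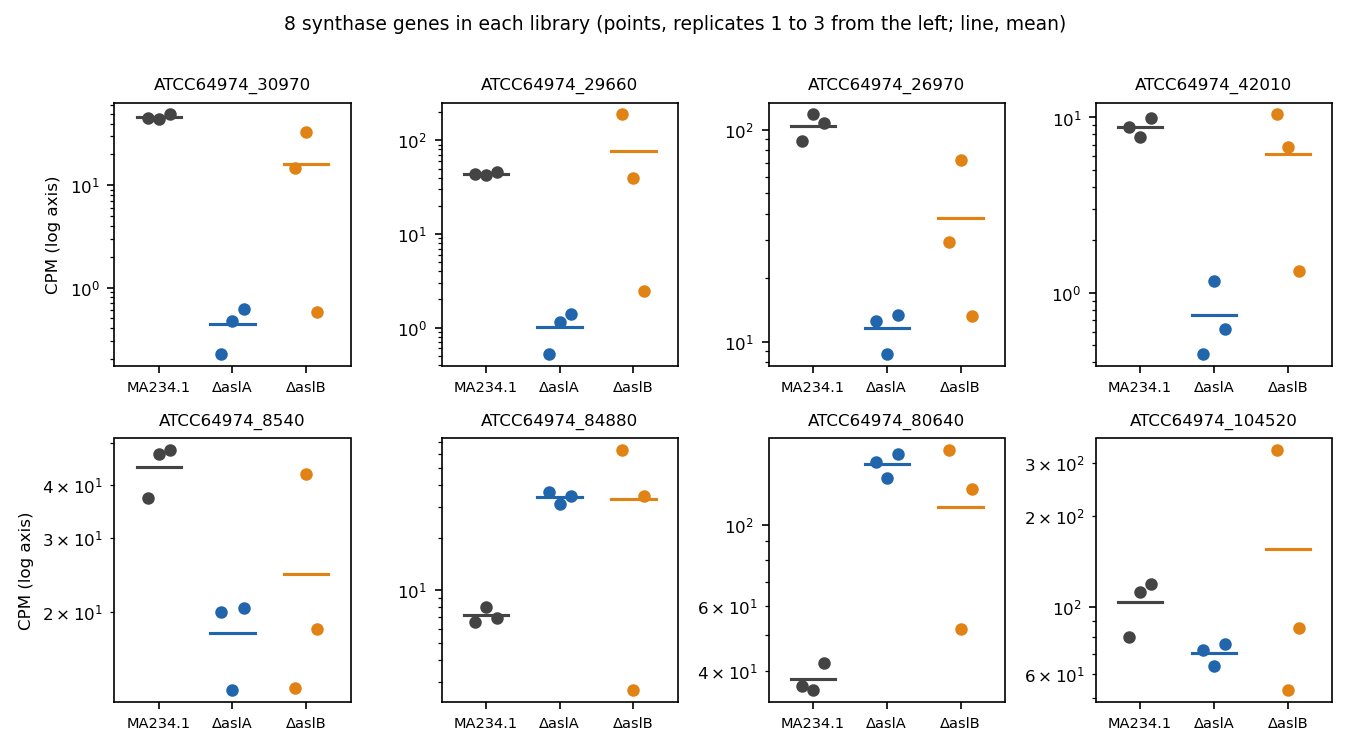
Level of 8 synthase genes in CPM (log axis, a separate scale in each panel) by strain, with 1 point per library in replicate order and the mean as a line. ATCC64974_30970, ATCC64974_29660, ATCC64974_26970, ATCC64974_42010 and ATCC64974_8540 are lower and ATCC64974_84880 and ATCC64974_80640 higher in every ΔaslA library than in any MA234.1 library. The 3 ΔaslB libraries of a gene are spread more widely than those of the other strains. For ATCC64974_8540 and ATCC64974_80640, replicate 2 alone stands apart.

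The 4 matches to primary metabolism, of which lys2 is counted among the NRPSs by its domains, were called in ΔaslA. The thiolase match ATCC64974_25070 was the most abundant gene of the set, at 2092, 1853 and 1815 CPM in MA234.1 and 84.0, 108 and 84.5 CPM in ΔaslA (log2 fold change of -4.38 with SE 0.93, adjusted p = 0.00864 by edgeR). The second thiolase match, ATCC64974_66210, rose from 251, 238 and 263 CPM to 1125, 638 and 1114 CPM (1.94, SE 0.51, adjusted p = 0.0145, and 0.0515 without MA234.1 replicate 2). The 2 genes thus changed in opposite directions. The lys2 match ATCC64974_80640 rose from 36.4, 35.4 and 42.1 CPM to 148, 134 and 156 CPM (1.94, SE 0.36, adjusted p = 0.00808). ATCC64974_51410, the mitochondrial synthase, rose from 13.1, 12.3 and 11.7 CPM to 17.4, 24.1 and 21.1 CPM (0.75, SE 0.27, adjusted p = 0.0435), a call that ended with any MA234.1 or ΔaslA library left out, with the replicate block and with median-of-ratios size factors (up to 0.128). ATCC64974_94490, a ketoacyl synthase stretch closest to the lovastatin nonaketide synthase LovB, fell from 5.04, 7.16 and 7.37 CPM to 2.00, 1.63 and 1.63 CPM (-1.89, SE 0.68, adjusted p = 0.0467), lost with any of those libraries left out, with the block, with total counts alone, with no filter and with limma-voom (up to 0.123). The gene beside it, ATCC64974_94500, is closest to a PKS-NRPS but lacks the domain that the rule asks for, and went from 37.9 to 40.3 CPM down to 5.77 to 7.93 CPM (-2.48, SE 0.50, adjusted p = 0.0082).

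Silent and nearly silent synthases made up the rest. Both ATCC64974_35860, a LovF match, and ATCC64974_21440, a short match to the cytochalasin synthase CcsA of A. clavatus, had no read in any library, which allows at most 0.158 to 0.275 CPM per library. A further 8 genes had no read in all libraries of at least 1 strain: ATCC64974_81350, ATCC64974_75560, ATCC64974_43830, ATCC64974_7320, ATCC64974_6900, ATCC64974_41180, ATCC64974_59380 and ATCC64974_17840. None of these 8 exceeded 0.448 CPM in a library, so no fold is given. The match to 6-methylsalicylic acid synthase, ATCC64974_63190, read 0, 0 and 0.384 CPM in MA234.1, 0, 0.105 and 0 CPM in ΔaslA, and 0, 0.0606 and 0.0831 CPM in ΔaslB. ATCC64974_41130, a reducing PKS singled out after its values were seen, missed the filter with 0.642, 1.19 and 1.23 CPM in MA234.1 and 0.0739, 0.0527 and 0.0777 CPM in ΔaslA. It passed the filter in some alternative fits through its MA234.1 level, so those fits are no support for a difference.

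Genes beside the synthases also fell more often than they rose. The 5 annotated genes on either side of every member came to 629, of which 409 were tested, 126 fell (30.8%) and 59 rose (14.4%), with a median log2 fold change of -0.45. Of all genes tested, 25% fell and 23.6% rose. Around the 16 members that fell, 52 of 116 tested neighbours fell (44.8%) and 10 rose (8.62%). Around the members that rose, 7 of 39 tested neighbours fell (17.9%) and 10 rose (25.6%, near the share of all genes). Around tested members that were not called, 47 of 168 fell (28.0%, near the share of all genes) and 21 rose (12.5%). By function, 5 of 10 tested cytochrome P450 genes beside a member fell (50%) and 0 rose, 14 of 30 major facilitator transporters fell (46.7%) and 5 rose (16.7%), and 4 of 6 short chain dehydrogenases fell (66.7%) and 0 rose. Of 13 FAD or FMN oxidoreductases 5 fell (38.5%) and 2 rose (15.4%), of 14 Zn2Cys6 transcription factors 5 fell (35.7%) and 1 rose (7.14%), and of 11 methyltransferases 3 fell (27.3%) and 1 rose (9.09%). Differences between these groups, most of them small, were not tested.

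Some falls spanned runs of genes, and others did not. Over the deposited clusters of the members that fell, 41 of 82 other tested genes fell (50%) and 2 rose (2.44%, against 23.6% of all genes). By cluster, 7 of 10 tested genes fell beside ATCC64974_82540, 6 of 17 beside ATCC64974_6280, 4 of 12 beside ATCC64974_42010 and 0 of 3 beside ATCC64974_8540. Beside ATCC64974_30970, 8 of the 10 genes that the deposited annotation gives to its cluster fell (80%, against 25% of all genes). The flavin monooxygenase match ATCC64974_30930 went from 56.0, 56.8 and 57.3 CPM to 3.92, 1.95 and 2.18 CPM (log2 fold change of -4.40 with SE 0.86, adjusted p = 0.00813 by edgeR). ATCC64974_30960, an uncharacterised match, fell by 4.22 on the log2 scale (SE 0.75, adjusted p = 0.00808). The feruloyl esterase match ATCC64974_30990 was at 1.30 to 4.77 CPM in MA234.1 and at most 0.369 CPM in ΔaslA. ATCC64974_31020 was at 0.97 to 1.69 CPM and at most 0.518 CPM. Both are counted in the 8. At these low levels both passed the filter through their MA234.1 libraries, so their calls are no support for a difference. Between the monooxygenase and the synthase, ATCC64974_30940 and ATCC64974_30950, which have no SwissProt match, went from 28.4 to 48.8 CPM in MA234.1 to at most 0.544 CPM in ΔaslA.

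Beside ATCC64974_29660, the oxidoreductase match ATCC64974_29650 went from 62.5, 55.4 and 55.6 CPM to 0.370, 0.316 and 0.389 CPM (log2 fold change of -7.31 with SE 1.23, adjusted p = 0.00808 by edgeR). The vanillin dehydrogenase match ATCC64974_29700 fell by 5.33 on the log2 scale (SE 1.26, adjusted p = 0.0108). The transporter match ATCC64974_29710, next in order, rose by 2.25 (SE 0.74, adjusted p = 0.0328). Around ATCC64974_82540, the zinc-binding oxidoreductase match ATCC64974_82570 had no read in ΔaslA and was at least 84.3-fold lower than in MA234.1 (5.22 to 6.24 CPM), taking 3 counts over the 3 libraries as the floor. The transporter match ATCC64974_82520 was likewise at least 42.5-fold lower. The dioxygenase match ATCC64974_82530 fell by 4.10 on the log2 scale (SE 1.07, adjusted p = 0.0145). Beside the gliotoxin synthetase match ATCC64974_6280, the monooxygenase match tetX (ATCC64974_6290) went from 71.5, 67.3 and 69.0 CPM to 2.59, 2.48 and 3.73 CPM (-4.56, SE 1.23, adjusted p = 0.0161), while the gene on its other side, ATCC64974_6270, held 10.4 to 12.9 CPM in the libraries of both strains (-0.13, adjusted p = 0.646).

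ATCC64974_17810 had neighbours that changed in both directions. An ABC transporter match, ATCC64974_17820, went from 366, 365 and 374 CPM to 62.1, 47.3 and 66.5 CPM (log2 fold change of -2.65 with SE 0.39, adjusted p = 0.00808 by edgeR), and the cytochrome P450 match ATCC64974_17830 fell by 2.06 (SE 0.30, adjusted p = 0.00808). On the other side the transporter match ATCC64974_17800 went from 0.149 to 0.642 CPM up to 2.44 to 5.37 CPM (3.53, SE 1.12, adjusted p = 0.0287). Beyond it, the reducing PKS ATCC64974_17790 read 4.68, 5.37 and 5.22 CPM in MA234.1 and 4.07, 3.11 and 4.27 CPM in ΔaslA (-0.42, SE 0.35, adjusted p = 0.338).

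The cluster of the fusarinine synthetase match ATCC64974_84880 was higher instead. Of its 14 other genes 8 rose (57.1%, against 23.6% of all genes) and 1 fell (7.14%, against 25%). ATCC64974_84910, an enoyl-CoA hydratase match, went from 0.734, 0.522 and 0.461 CPM to 8.06, 9.32 and 6.99 CPM (log2 fold change of 3.82 with SE 0.80, adjusted p = 0.00863 by edgeR). ATCC64974_84890 rose by 3.31 (SE 0.80, adjusted p = 0.0113) and ATCC64974_84840, a UDP-glucose dehydrogenase match, by 2.78 (SE 0.56, adjusted p = 0.00819). The siderophore transporter match mirB in this cluster, ATCC64974_84920, stayed short of the threshold at 0.275 to 1.38 CPM against 2.07 to 3.96 CPM (1.73, SE 0.99, adjusted p = 0.173). Over the whole genome, 3 of 6 tested siderophore transporter matches rose (50%, against 23.6% of all genes) and 1 fell (16.7%, against 25%). The mirB match ATCC64974_47620 went from 10.7, 9.10 and 7.29 CPM to 123, 119 and 122 CPM (3.75, SE 1.02, adjusted p = 0.0165) and ATCC64974_36880 rose by 2.66 (SE 0.72, adjusted p = 0.0164), while str3, ATCC64974_25700, fell by 1.89 (SE 0.34, adjusted p = 0.00808).

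**Figure D4:**
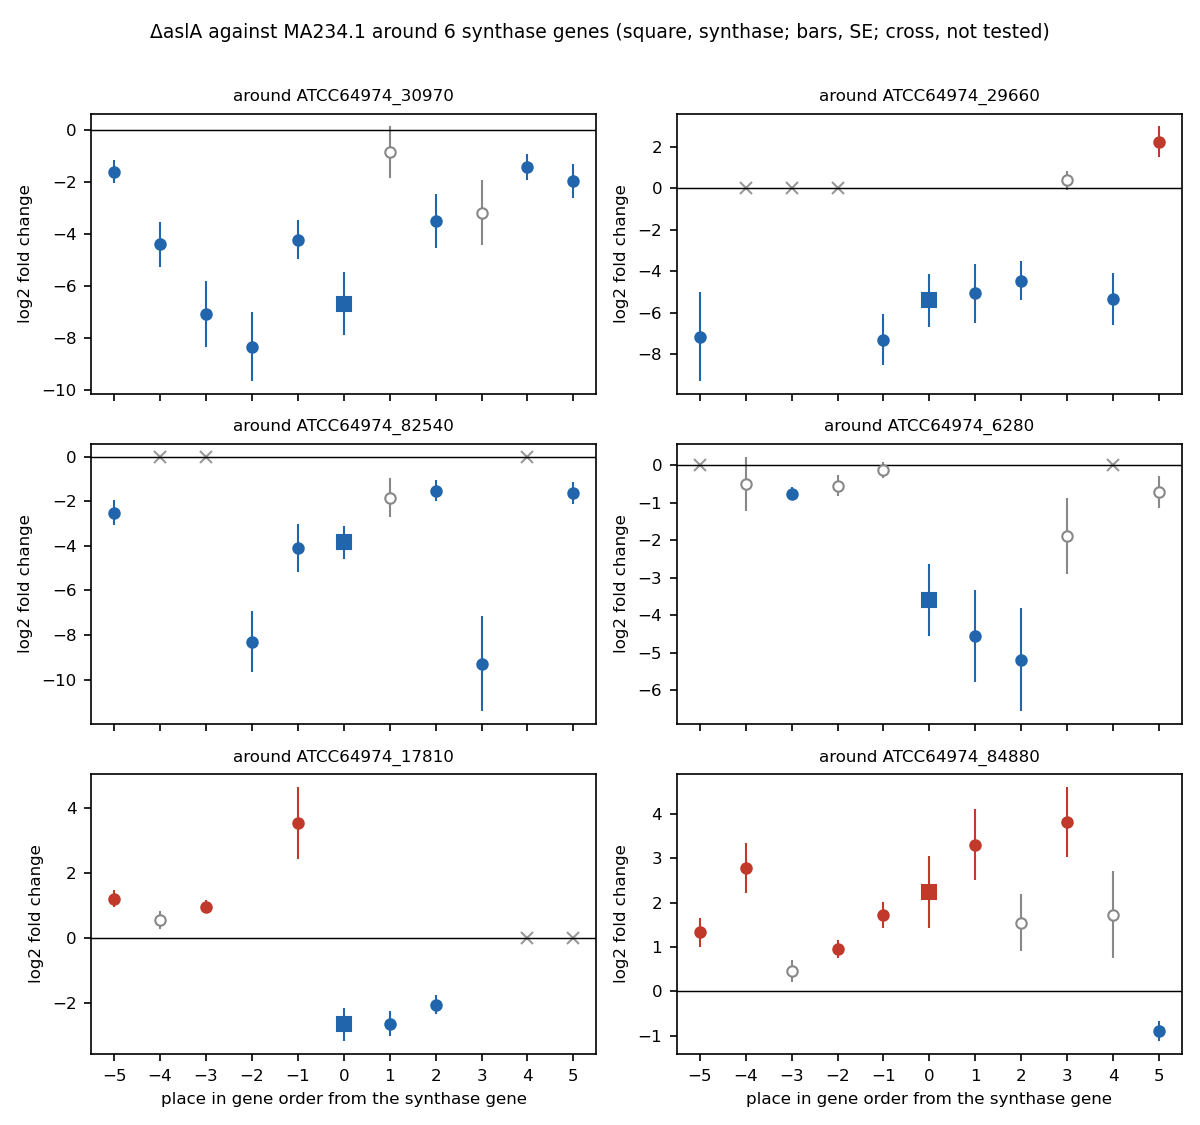
Log2 fold change, ΔaslA against MA234.1 (y axis, bars are standard errors), of the 5 annotated genes on each side of 6 synthase genes, by place in gene order (x axis). Squares are the synthases, filled points passed an adjusted p of 0.05 (blue lower, red higher), crosses were not tested and other members are left out. The fitted values of ATCC64974_82520 and ATCC64974_82570, without a read in ΔaslA, depend on the prior count. The runs around ATCC64974_30970 and ATCC64974_82540 are mostly blue, that around ATCC64974_84880 is mostly red, and that around ATCC64974_17810 changes sign.

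Malonyl-CoA is the extender unit of PKSs and of fatty acid synthase. Of 4 genes listed for its supply 3 rose (75%, against 23.6% of all genes) and 1 fell (25%, the share of all genes). Acetyl-CoA carboxylase, ATCC64974_38090, which makes malonyl-CoA, went from 213, 228 and 240 CPM to 585, 395 and 594 CPM (log2 fold change of 1.21 with SE 0.29, adjusted p = 0.0113 by edgeR). Both subunits of ATP-citrate lyase, ATCC64974_87430 and ATCC64974_87440, rose by 5.67 and 4.62 on the log2 scale (adjusted p = 0.00835 and 0.00869), and the acetyl-CoA synthetase facA, ATCC64974_80800, fell by 4.53 (adjusted p = 0.00878). Carrier domains need a phosphopantetheine arm, and the gene closest to the mouse phosphopantetheinyl transferase, ATCC64974_38160, went from 8.44, 8.80 and 8.21 CPM to 14.9, 43.5 and 14.2 CPM (1.51, SE 0.52, adjusted p = 0.0376). Of the 5 genes with that transferase domain 4 were tested, 3 rose (75%, against 23.6% of all genes) and 1 fell (25%, the share of all genes). Among the 5, 3 are closest to the alpha subunit of fatty acid synthase, including 1 that rose (ATCC64974_23430) and the 1 that fell (ATCC64974_40600), both described with fatty acid synthase. The other gene that rose was ATCC64974_820, closest to a bacterial holo-acyl carrier protein synthase (1.74, adjusted p = 0.0294).

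Fatty acid synthase, which shares the ketoacyl synthase fold and the malonyl-CoA pool, had a pair of genes called higher and a pair called lower. The alpha and beta subunit genes ATCC64974_23430 and ATCC64974_23440 rose together, from 247, 271 and 291 CPM to 1174, 686 and 1210 CPM and from 207, 240 and 245 CPM to 1101, 623 and 1131 CPM (log2 fold changes 1.92, SE 0.44, and 2.04, SE 0.49, edgeR adjusted p = 0.00989 and 0.0112). A far less abundant pair, ATCC64974_40600 and ATCC64974_40610, fell by 1.21 and 1.10 (SE 0.41 and 0.28, adjusted p = 0.0369 and 0.0128). In all, 2 of 8 tested fatty acid synthase genes rose (25%) and 2 fell (25%), near the shares of all genes (23.6% and 25%). Their median log2 fold change was -1.15, and 6 of the 8 had negative values. Among those short of the threshold were ATCC64974_63640 (-2.21, SE 0.93, edgeR adjusted p = 0.0767) and ATCC64974_96530 (-1.33, SE 0.58, adjusted p = 0.0861).

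NRPS-like genes, which have an adenylation and a carrier domain but no condensation domain, showed 1 call in each direction. That is 9.09% each way, against 23.6% of all genes higher and 25% lower. Of 17 genes 11 were tested, 1 rose (ATCC64974_59190, log2 fold change of 1.79 with SE 0.47, adjusted p = 0.0146 by edgeR) and 1 fell (ATCC64974_59630, -2.84, SE 0.66, adjusted p = 0.0101), with a median of -0.19. Of the list of terpene synthases and prenyltransferases, 4 of 10 tested genes rose (40%, against 23.6% of all genes) and 1 fell (10%, against 25%). Those that rose include ATCC64974_40510, closest to squalene synthase of the sterol pathway, and ATCC64974_10990, closest to an assembly factor of respiratory complex I, which is no terpene synthase by that match. The ophiobolin synthase match ATCC64974_96520 went from 5.78, 5.52 and 4.99 CPM to 138, 128 and 134 CPM (4.62, SE 0.98, adjusted p = 0.00868), and the prenyltransferase match brePT, ATCC64974_45020, fell by 3.23 (SE 0.86, adjusted p = 0.0152). The type III PKS match ATCC64974_96920, of a family built without carrier domains, had reads in 1 library alone. Of 4 genes for velvet proteins, which with LaeA control secondary metabolism in aspergilli, ATCC64974_18300 rose by 0.92 (SE 0.25, adjusted p = 0.0155) and ATCC64974_102330 fell by 1.65 (SE 0.34, adjusted p = 0.00854). That is 25% in each direction, near the shares of all genes (23.6% and 25%).

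The deletion of aslB gave no call with edgeR, nor with limma-voom. Neither against MA234.1 nor against ΔaslA did edgeR call any of the 9568 genes (0% in both), members included. Unadjusted p was under 0.05 for 10 of 47 members and 2943 genes against MA234.1, and for 11 members and 1651 genes in ΔaslA against ΔaslB. With scaling by total counts alone, edgeR called 783 genes in ΔaslB against MA234.1 (7.98% of all genes higher, 0.199% lower) and 1 member, the lys2 match, as higher. DESeq2 called 8 of the 47 members in ΔaslB against MA234.1, 3 higher and 5 lower. In that comparison it called 15.1% of all genes with an adjusted p higher and 5.37% lower. All 8 members were among those called for ΔaslA. The 3 higher were ATCC64974_84880 and the primary metabolism matches ATCC64974_66210 and ATCC64974_80640. In ΔaslA against ΔaslB, DESeq2 called 6 members lower and 0 higher, beside 5.52% and 0.489% of all genes. The libraries of this strain did not act as 1 group. Of the 20 members called in ΔaslA, ΔaslB replicate 2 lay nearer to the MA234.1 mean for 19, replicate 1 for 8 and replicate 3 for 2. Over the 16 members that fell, the median log2 difference from MA234.1 was -1.46, -0.38 and -2.16 in ΔaslB replicates 1 to 3, beside -2.28, -2.52 and -2.22 in the ΔaslA libraries. These members were picked by their ΔaslA values against the same MA234.1 libraries, so the low ΔaslA medians follow from that choice. Over all 47 tested members the medians lay closer together, at -0.28, -0.23 and -0.53 in ΔaslB replicates 1 to 3. In the ΔaslA libraries they were -0.58, -0.84 and -0.54. Leaving out replicate 2, edgeR called 18 of 51 tested members in ΔaslB against MA234.1, 15 lower (against 26.3% of all genes) and 3 higher (against 26.5%). The share of members called lower was thus near that of all genes. The 3 higher were the same genes as with DESeq2, and the 15 lower include the primary metabolism match ATCC64974_25070. The 15 also include ATCC64974_41130, which passed the filter there through its MA234.1 level and is no support for a difference. Of the 18, 13 were also called for ΔaslA. The 2 comparisons share the MA234.1 libraries and called 4657 of 9568 genes (ΔaslA) and 5102 of 9668 genes (ΔaslB without replicate 2). Shared calls are therefore common among all genes. How many genes were called in both was not counted, so the overlap is not read as a result about the members. Without replicate 2, ATCC64974_84880 was higher (log2 fold change of 2.76 with SE 0.26, adjusted p = 2.9e-05 by edgeR) and ATCC64974_6280 lower (-3.00, SE 0.41, adjusted p = 0.000312).

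**Figure D5:**
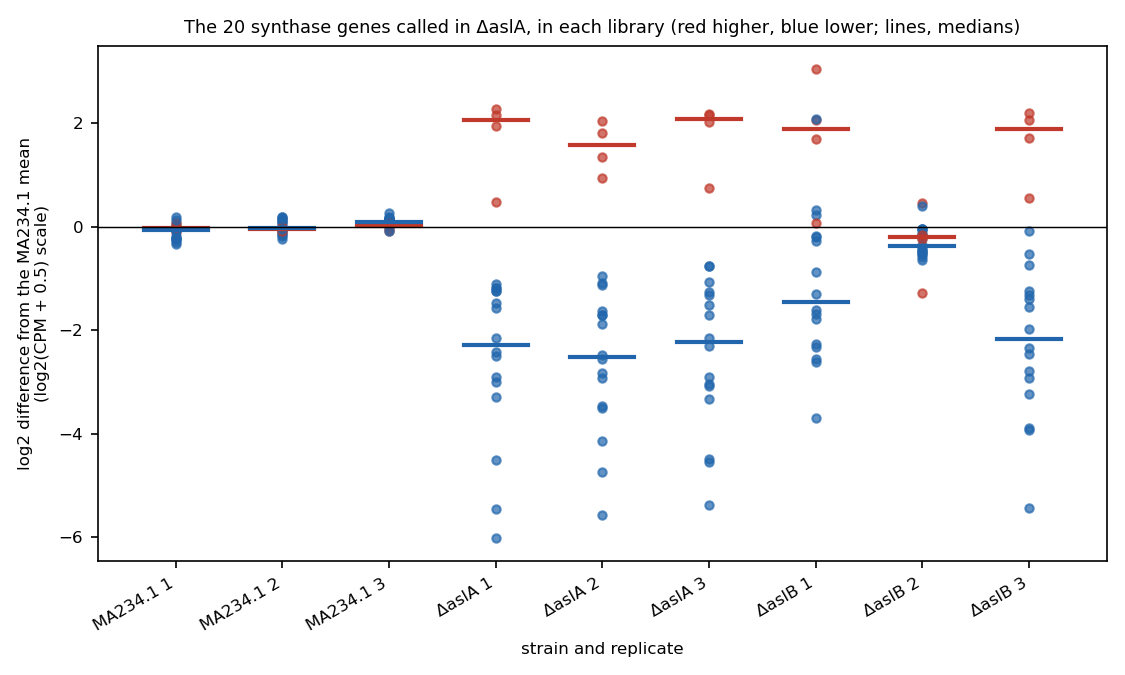
Difference of each of the 20 called synthase genes from its MA234.1 mean in each library (y axis, log2(CPM + 0.5) scale; x axis, strain and replicate), red for the 4 called higher and blue for the 16 called lower in ΔaslA, with medians as lines. ΔaslB replicate 2 sits near 0 (median -0.38 for the blue genes), replicate 3 beside the ΔaslA libraries (-2.16), and replicate 1 between them (-1.46) with 1 blue gene above 2. The genes shown were picked by their ΔaslA values against the same MA234.1 libraries.

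ΔaslB replicate 1 kept several synthases high that were low in ΔaslA. ATCC64974_29660 read 189, 39.3 and 2.49 CPM in ΔaslB, so replicate 1 exceeded every MA234.1 library and replicate 3 was near ΔaslA. ATCC64974_42010 read 10.4, 6.79 and 1.33 CPM, ATCC64974_82540 read 7.71, 5.88 and 1.16 CPM, and ATCC64974_30970 read 14.7, 32.8 and 0.582 CPM. In each the first libraries were near or towards MA234.1 and the third was near ΔaslA. For ATCC64974_26970 (29.6, 72.0 and 13.2 CPM) and ATCC64974_25070 (148, 1450 and 126 CPM) replicate 2 alone was near MA234.1. ATCC64974_104520, an NRPS closest to A. fumigatus NRPS1 that was not called in ΔaslA (79.9, 112 and 119 CPM against 72.3, 63.8 and 75.5 CPM, log2 fold change of -0.56 with SE 0.57, adjusted p = 0.437 by edgeR), read 329, 53.1 and 85.6 CPM in ΔaslB. The NRPS ATCC64974_68020, closest to the fumiquinazoline synthetase NRPS12, went the other way in the same library, at 8.58 CPM against 25.6 to 41.7 CPM in the other 8. Without ΔaslB replicate 3, edgeR called 9 of 53 tested members lower and 1 higher in ΔaslA against ΔaslB, and called 11% of all genes lower and 2.14% higher. ATCC64974_30970 was at -5.72 (SE 0.47, edgeR adjusted p = 0.000454).

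As a share of all counts, the 64 synthases without the primary metabolism matches held 0.0916% to 0.111% of a MA234.1 library and 0.0645% to 0.0732% of a ΔaslA library. In ΔaslB the share was 0.111%, 0.0937% and 0.0731% in replicates 1 to 3. The authors' deposited table, which pools the replicates of a strain, marks 1 member as differing between ΔaslA and MA234.1, the thiolase match ATCC64974_25070 at an FPKM of 87.3 and 1846, and in ΔaslA against ΔaslB that gene and ATCC64974_29660. For ATCC64974_30970 the authors' deposited table gives an FPKM of 7.98 in MA234.1 and 0.0777 in ΔaslA with a q-value of 0.000295226, and no mark. The mark thus does not rest on the q-value alone, and its count is not comparable with the edgeR calls. Between ΔaslB and MA234.1 no member is marked, although ATCC64974_80640 and ATCC64974_84880 also have a deposited q-value of 0.000295226 there.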

How the data were processed

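Polyadenylated RNA libraries made with a stranded kit were read in pairs of 50 bp, per the labels. The submitters' processing notes name HISAT2 2.2.1, Subread, featureCounts and Cuffdiff. The genome build is not given in the sources used here; contigs are numbered as in the deposited annotation and coordinates count from its own locations. The authors deposited whole-number read counts per gene and library, and a table with their FPKM per strain (replicates pooled), q-value and log2 ratio (which, from its values, is of FPKM + 1), used only where named.

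From the deposited counts, edgeR 4.0.16 (R 4.3.3) fitted all 9 libraries with strain as the only term, TMM scaling, its filter by group, and the quasi-likelihood test, with Benjamini-Hochberg adjustment over the 9568 genes tested; called means an adjusted p under 0.05. CPM is the count scaled by library total and TMM factor. The script was tested on simulated counts. Floors cover counting error only, while the printed SDs and SEs take in the spread between libraries. With 3 libraries a strain, p-values rest on the spread between these libraries.

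Named were called members, the 10 most abundant, matches to known products, members at 0 throughout a strain, up to 3 called neighbours of a called member and up to 4 called genes of a list, the largest changes first, of which a selection is printed; other named genes (members that were not called, and neighbours that were not called or have no SwissProt match) were chosen after their values were seen. Members and lists were chosen with earlier results of these data known. Domains gave the classes. Closest SwissProt proteins are names of similarity only. Replicate numbers correlated at -0.058 to 0.038 between strains in their deviations and were not treated as pairs. Alternatives were other scaling within edgeR (median-of-ratios size factors, total counts), DESeq2 1.42.0, limma-voom (limma 3.58.1), other filters, 6 libraries, a replicate block, other neighbourhoods and each library left out. No sequence is printed. Within each strain, replicates differed by more than counting noise (chi-square per degree of freedom from 2.32 to 591).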

Additional observations from a re-analysis of the deposited data

How the results depend on the processing

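For ΔaslA against MA234.1, the count of members called lower (16) was 11 to 21 with a library left out and stayed within 1.5 times of 16 under the alternatives run, the replicate block included. The count called higher (4) was 2 with the replicate block, 1 to 4 with a library left out, and 1 without the matches to primary metabolism, a choice made after seeing the data. For ΔaslB against MA234.1 the counts of 0 became 1 higher with total counts alone, 3 higher and 5 lower with DESeq2, and 0 to 3 higher and 0 to 15 lower with a library left out, the largest without ΔaslB replicate 2. For ΔaslA against ΔaslB they became 6 lower with DESeq2, and 0 to 1 higher and 0 to 9 lower with a library left out, the largest without ΔaslB replicate 3. Neighbours called higher (59) were 93 with only the 6 libraries compared, 36 within 3 genes, 149 within 10 genes, 33 by the deposited cluster numbers (chosen after seeing the data), and 39 to 81 with a library left out; those called lower (126) were 67 within 3 genes, 248 within 10 genes, and 90 to 158 with a library left out. Wider or narrower neighbourhoods hold more or fewer genes; the cause of the other changes was not tested. Of 423 alternative values of 25 named members, 371 kept direction and side of the threshold, 47 missed it, 5 newly passed it and 0 reversed; 9 of the 20 calls held in every alternative that gave a value. Replicate numbers do not pair the libraries. With total counts alone the median log2 fold change of all genes in ΔaslB against MA234.1 was 0.10 (0.01 with TMM), and 783 genes were called (0 with TMM), 97.6% of them higher. For the 21 members that missed the filter, depth limits what can be seen.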
